A study of Mus musculus with 58 samples.

Results

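The E2F transcription factors and the retinoblastoma protein were followed through the day in whole retinas of diabetic and control mice. The 9 genes E2f1 to E2f8 and Rb1 were taken by symbol from a table of 52459 gene symbols, and all 9 were found. They were chosen by symbol with earlier results of these data known, and which measured values led to the choice is not recorded, so the levels below are descriptions, and the adjusted p-values, which come from fits over all expressed genes, do not account for that choice. Of the 9 genes, 8 had a median normalized count above 4 over the 58 libraries and were among the 19120 expressed genes that entered the tests, while E2f8 was not.

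The diabetic mice were 4-month-old heterozygous males of the C57BL/6-Ins2Akita/J strain, in which mutant insulin protein misfolds and beta cells are lost, and the controls were C57/BL/6 male littermates without hyperglycemia. Both were housed from birth in 12 h of light and 12 h of dark and were perfused with saline before the retina was dissected, under dim red light at night. Retinas were taken at zeitgeber time (ZT) 1, 5, 9, 13, 17 and 21, where ZT0 is lights on, with 5, 6, 5, 5, 5 and 4 control libraries and 5, 5, 5, 4, 4 and 5 diabetic libraries at those times. Each time was sampled in a single cycle from different mice, and total RNA depleted of ribosomal RNA was sequenced, so a change in the share of a cell type and a change in RNA per cell cannot be told apart.

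E2F proteins bind the promoters of genes for DNA replication and the cell cycle. E2F1, E2F2 and E2F3 are best known as activators, E2F4 and E2F5 as partners of the pocket proteins in resting cells, E2F6 as a repressor within a Polycomb complex, and E2F7 and E2F8 as atypical repressors that need no DP partner. The retinoblastoma protein, encoded by Rb1, binds the activators until cyclin-dependent kinases phosphorylate it, and its loss in the human infant retina gives rise to retinoblastoma. Neurons of the adult mouse retina have left the cell cycle.

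Libraries held 7773117 to 22147398 counted reads, with a median of 15406440. Rod, cone, bipolar, amacrine, ganglion cell and Muller glia markers were all present, with 450805 to 699227 normalized counts summed over 4 rod markers in control retinas and 441467 to 632558 in diabetic retinas. Summed lens markers exceeded 1000 normalized counts in 3 libraries, all of them control (ZT1 replicate 6, ZT17 replicate 5 and ZT21 replicate 2), and the comparisons were repeated without them. Among 113 pairs of libraries within a group, the chi-square per degree of freedom of the counts was 1.82 or higher, so no pair agreed within sampling noise. At ZT17 control replicate 3 lay at 10.5 to 50.4 from the others of its group, and diabetic replicate 3 at 34.6 to 39.5. Diabetic ZT13 replicate 5 stood apart, at 72.1 to 77 from the other libraries of its group against a median of 9.62 over all pairs, and its 10 most abundant genes took 21.5% of its reads against 10.2% to 14.2% in the other libraries. Without it E2f3 was still called over the day and at ZT17, E2f3, E2f6 and E2f7 were still called rhythmic in diabetic retinas, and Lin52 and Ring1 were no longer called over the day (edgeR adjusted p = 0.0536 and 0.0645).

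The start regions of E2f3 and E2f2 are shown because these were the members with the smallest p-values for genotype and for daily rhythm in control retinas. RefSeq promoter windows, 250 bases before to 50 bases after a gene's start on GRCm38.p6, matched 6 of the 9 members with 8 windows, and none matched E2f4, E2f5 and Rb1. Capitals mark exact matches, on either strand, to the E2F sequences TTTCCCGC, TTTCCCGG, TTTCGCGC, TTTCGCGG, TTTGCCGC, TTTGCCGG, TTTGGCGC and TTTGGCGG or to the E-box CACGTG, the element that clock factors can bind. The upstream E2f3 window lies at chr13:29986014-29986313 on the minus strand, the second E2f3 window at chr13:29984342-29984641 on the minus strand, and the first E2f2 window at chr4:136172024-136172323 on the plus strand.
E2f3 upstream window: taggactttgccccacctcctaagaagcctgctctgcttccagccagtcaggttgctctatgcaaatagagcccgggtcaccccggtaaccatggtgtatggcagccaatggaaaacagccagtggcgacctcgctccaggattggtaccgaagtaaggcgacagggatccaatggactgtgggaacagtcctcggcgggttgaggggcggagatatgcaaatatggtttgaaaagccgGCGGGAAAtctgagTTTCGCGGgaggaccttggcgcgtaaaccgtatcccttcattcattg
E2f3 second window: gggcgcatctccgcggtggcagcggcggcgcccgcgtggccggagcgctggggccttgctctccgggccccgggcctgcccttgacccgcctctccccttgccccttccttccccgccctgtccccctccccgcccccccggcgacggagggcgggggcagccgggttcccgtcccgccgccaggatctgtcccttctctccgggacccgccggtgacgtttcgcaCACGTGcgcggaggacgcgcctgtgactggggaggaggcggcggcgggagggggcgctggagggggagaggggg
E2f2 first window: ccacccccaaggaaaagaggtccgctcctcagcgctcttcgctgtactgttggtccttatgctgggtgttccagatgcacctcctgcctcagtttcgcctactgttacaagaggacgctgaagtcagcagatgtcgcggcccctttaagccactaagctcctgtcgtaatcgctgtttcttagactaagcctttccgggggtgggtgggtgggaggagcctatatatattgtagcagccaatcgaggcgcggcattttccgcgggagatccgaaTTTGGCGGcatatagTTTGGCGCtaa

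The upstream E2f3 window held GCGGGAAA from position -11 and TTTCGCGG from position 3, counted from 0 at the start site, and the second window held CACGTG from position -24. The first E2f2 window held TTTGGCGG from position 24 and TTTGGCGC from position 39, a second E2f2 window, at chr4:136180532-136180831 and not printed, held no match, and the only other E2F match among the members' windows was GCGGGAAA from position -198 of E2f7. An E2F sequence was present in 4.508% of 32851 windows of this length and the E-box in 7.15%, the matches did not overlap each other, and a match is a description of the letters and not a binding site.

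Rb1 and E2f4 had the highest levels per length of the 9 genes. Mean normalized counts per kilobase of exon, over 58 libraries, were 211 ± 28.5 (SD) for Rb1, 201 ± 29.2 for E2f4, 108 ± 12.5 for E2f5, 82.6 ± 11.5 for E2f3 and 64.6 ± 5.87 for E2f6. Much lower values were found for E2f1, at 6.32 ± 1.48, for E2f2, at 1.48 ± 0.702, and for E2f7, at 0.756 ± 0.321. The order of Rb1 over E2f4 held in only 37 of 58 libraries and was within their spread, whereas each other neighbour in the order stood above the next in 52 or more of 58 libraries. E2f8 had 21 reads in all 58 libraries together and none in 42 of them, with a mean of 0.0612 normalized counts per kilobase.

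**Figure D1:**
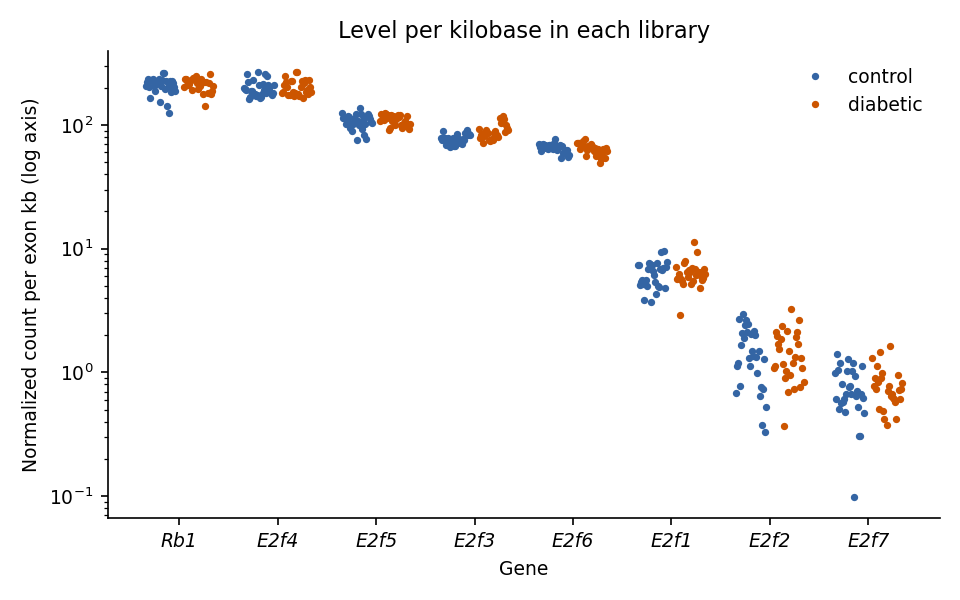
Normalized count per kilobase of exon (log axis) of the 8 expressed genes, each point a library, control in blue and diabetic in orange; 1 diabetic library in which E2f7 had no read is not drawn. Rb1, E2f4, E2f5, E2f3 and E2f6 stand well above E2f1, E2f2 and E2f7.

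Where the members lie bears on their counts. By Gencode M21 on GRCm38, E2f3 occupies chr13:29906575-29986063 on the minus strand and shares no exon base with its antisense neighbour Gm11365. Rb1, at chr14:73183673-73325822 on the minus strand, shares 488 exon bases with Rcbtb2 and 408 with Lpar6 on the opposite strand, and E2f5 shares 26 with 1810022K09Rik. E2f8 shares 610 exon bases with Gm2788 on the opposite strand, which had a mean of 2.2 normalized counts, and E2f7 shares 86 with 1700020G17Rik. Whether counting used the strand is not given in the sources used here, so reads from those shared bases cannot be told apart.

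Counted per gene symbol, without regard to which start was used, E2f3 was the only member called different between genotypes. Averaged over the 6 time points, its normalized count was 421 in control and 483 in diabetic retinas, 1.14-fold higher in diabetes (log2 fold change 0.19, SE 0.029, 95% interval 0.13 to 0.25, adjusted p = 2.02e-05, edgeR quasi-likelihood test with Benjamini-Hochberg adjustment). It ranked 27 of 19120 genes by p. The test called 888 of 19120 genes, or 4.64%, and 1 of the 8 members tested.

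The E2f3 difference was largest in the middle of the night. At ZT17 the 5 control libraries had 382, 415, 410, 467 and 471 normalized counts, and the 4 diabetic libraries had 620, 559, 573 and 647. Every diabetic library lay above every control library, and this held in either direction for 1.97% of all expressed genes at ZT17. It held for no other member and no other time point, where 0.91%, 1.1%, 0.774%, 1.07% and 2.23% of genes did not overlap at ZT1, ZT5, ZT9, ZT13 and ZT21. The diabetic level was 1.4-fold the control level (log2 fold change 0.48, SE 0.072, 95% interval 0.34 to 0.63, edgeR adjusted p = 0.000251), the smallest p of all genes at ZT17, where the test called 32 of 19120 genes, or 0.167%. DESeq2 called 90 genes at ZT17 and edgeR with the replicate block 60, E2f3 in each case the 1 member called. Fitted on the 9 ZT17 libraries alone, the same difference had a log2 fold change of 0.48 and an edgeR adjusted p = 0.465. Such fits on single time points called 33 genes over the 6 time points, beside 39 in the fit of all 12 groups. Why E2f3 was not among the 33 was not tested. E2f2 at ZT17 had a log2 fold change of 1.03 (SE 0.40) and an edgeR adjusted p = 0.367, with an unadjusted p under 0.05 as in 8.82% of genes. Total counts at ZT17 were 15656408 to 19929725 in control and 18193309 to 20301393 in diabetic libraries.

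Outside ZT17 the genotypes overlapped. At ZT5 the 6 control libraries ran from 361 to 424 with a median of 383, against 439, 456, 492, 471 and 409 in diabetic retinas, and the edgeR adjusted p was 0.367. At ZT21 control libraries had 494, 447, 458 and 451 and diabetic libraries 604, 477, 546, 516 and 491, with an edgeR adjusted p = 0.912. These were the next largest differences in E2f3, with log2 fold changes of 0.22 (SE 0.067) and 0.18 (SE 0.073). The remaining log2 fold changes were 0.13 at ZT13, 0.08 at ZT9 and 0.04 at ZT1, each with a 95% interval that included 0. Leaving out 1 library at a time moved them over ranges from 0.09 to 0.16, from 0.04 to 0.11 and from -0.01 to 0.09 in that order, and the ZT9 value was 0.04 without diabetic ZT9 replicate 5. At the 5 time points other than ZT17 no member was called by edgeR, by which 2, 4, 1, 0 and 0 genes, or 0.0105%, 0.0209%, 0.00523%, 0% and 0%, passed at ZT1, ZT5, ZT9, ZT13 and ZT21. Unadjusted p-values under 0.05 at those times were found for E2f3 at ZT5 and ZT21, for E2f7 at ZT9 and for E2f2 at ZT21, when 5.5%, 6.15%, 4.49%, 4.46% and 4.67% of genes had such values at ZT1, ZT5, ZT9, ZT13 and ZT21. DESeq2 called 0 members at each of these times, with 8, 24, 4, 1 and 2 genes.

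**Figure D2:**
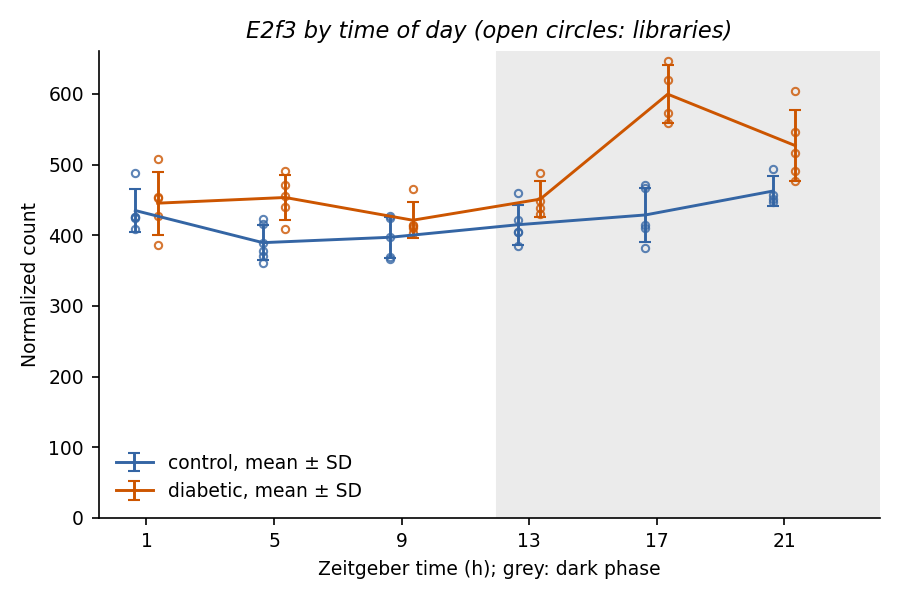
Normalized count of E2f3 (vertical axis, from 0) against zeitgeber time in hours, with libraries as open circles and lines through group means ± SD, control in blue and diabetic in orange. At ZT17 the diabetic mean was 600 against 429 in control, and the libraries did not overlap.

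No call was made for the other expressed members averaged over the day. The log2 fold changes of Rb1, E2f4, E2f5 and E2f6 were 0.03, 0.04, 0.03 and -0.03, and their 95% intervals reached from -0.07 to 0.13, from -0.07 to 0.14, from -0.06 to 0.12 and from -0.08 to 0.03. For the low-count members the intervals were wider, from -0.15 to 0.21 for E2f1, from -0.16 to 0.49 for E2f2 and from -0.32 to 0.29 for E2f7. The edgeR adjusted p-values of these 7 genes lay between 0.673 and 0.989.

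**Figure D3:**
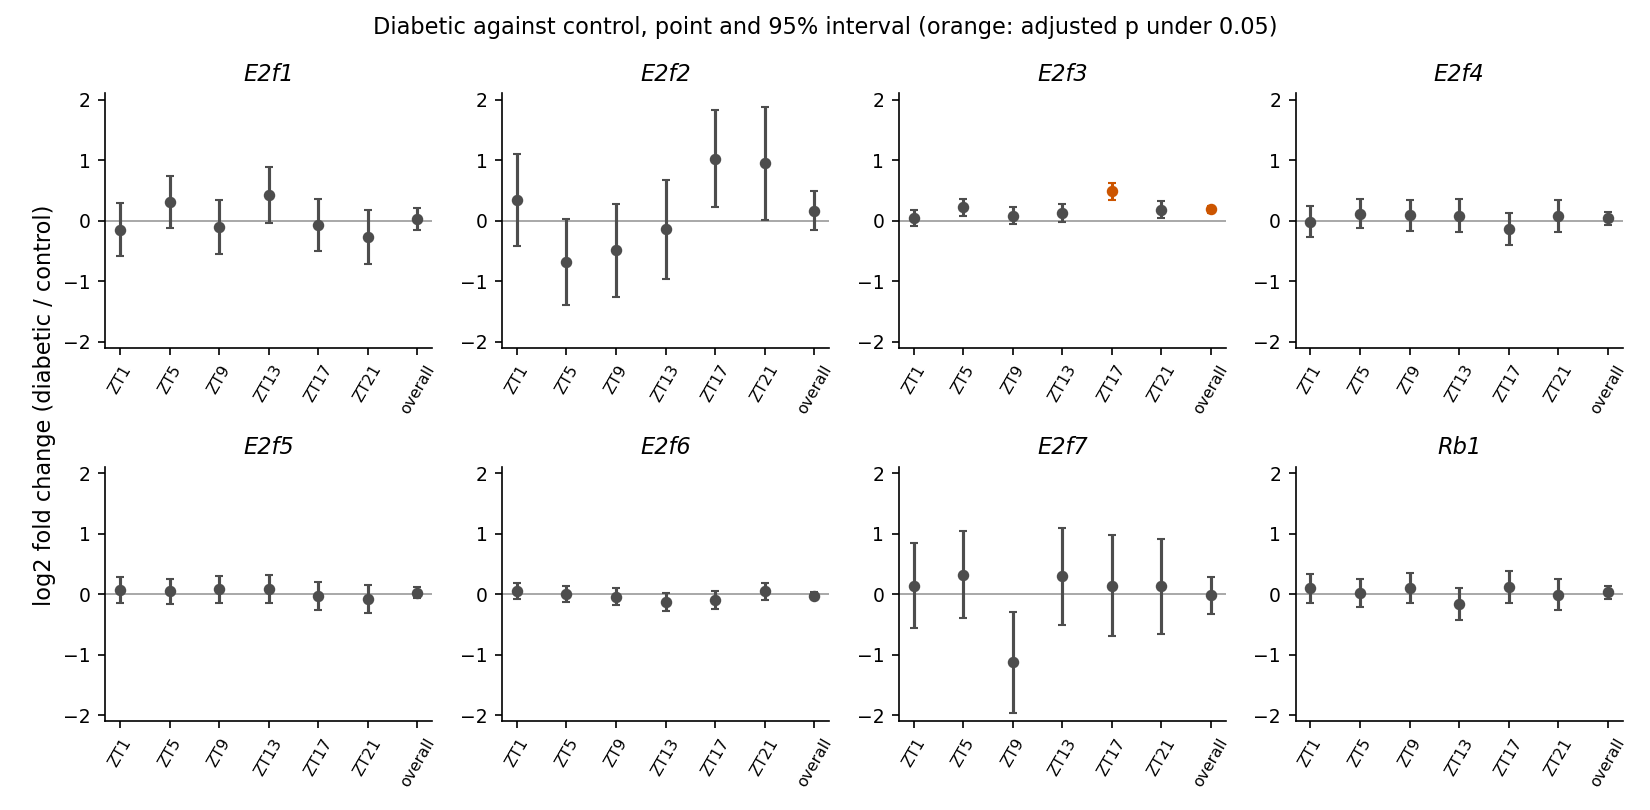
Log2 fold change of diabetic over control with its 95% interval at each time point and averaged over the day, 1 panel per expressed gene, orange where the edgeR adjusted p was under 0.05. Only E2f3 at ZT17 and over the day is orange.

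Daily rhythm was tested in each genotype with empirical JTK_CYCLE at a 24 h period, and a gene was called rhythmic at an unadjusted p under 0.05 with the highest library more than 25% above the lowest. In control retinas 3 of the 8 expressed members were called, against 21.8% of all expressed genes, and in diabetic retinas 3 of 8, against 23.9%. These shares were 4172 and 4565 genes. With each library left out in turn, 3640 to 5080 genes were called in control and 3974 to 4949 in diabetic retinas. Both E2f3 and E2f6 were called in each genotype, as were 11.9% of genes, while E2f2 was called in control and E2f7 in diabetic retinas.

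E2f3 had its highest group mean at night in both genotypes, although in control the ZT1 mean, 435 ± 30.9 (SD, n = 5), exceeded those at ZT13 and ZT17. In control retinas its group means ranged from 389 ± 25.2 (SD, n = 6) at ZT5 to 462 ± 21.7 (n = 4) at ZT21, with an acrophase, the time of the fitted peak, of ZT20.3 (SE 0.895 h), a relative amplitude of 7.59% (SE 1.85) and p = 0.00168 by the permutation test of JTK_CYCLE. Diabetic means ranged from 421 ± 25.1 (n = 5) at ZT9 to 600 ± 41 (n = 4) at ZT17, with an acrophase of ZT18.5 (SE 0.717 h), a relative amplitude of 14.6% (SE 2.71) and p = 7.2e-05 by the same permutation test. The edgeR cosine test did not call E2f3 in control retinas, with an adjusted p = 0.0612. For the difference between the genotypes' cosine curves the edgeR adjusted p was 1, with 0.043 before adjustment. A test that let the genotype difference vary freely between time points gave 0.00102 before and 1 after adjustment in edgeR.

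E2f6 was highest in the day in both genotypes. Control means ranged from 331 ± 17.1 (n = 4) at ZT21 to 393 ± 27.9 (n = 5) at ZT9, with an acrophase of ZT7.4 (SE 0.81 h) and p = 0.0102 by the permutation test. In diabetic retinas the means ranged from 322 ± 38.5 (n = 4) at ZT17 to 394 ± 18 (n = 5) at ZT1, with an acrophase of ZT4.7 (SE 0.832 h) and p = 0.00051 by the permutation test. The relative amplitudes were 7.3% (SE 1.57) and 9.86% (SE 2.2), so the E2f3 peak and the E2f6 peak fell in opposite phases of the day in both genotypes. E2f6 was not called in control retinas by the adjusted p (0.086) of JTK_CYCLE, nor in either genotype by the fold of time-point means.

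E2f2 had a rhythm in control retinas at a level of a few reads per library. Its 6 control libraries at ZT5 ran from 8.11 to 14.5 normalized counts with a median of 11, whereas control libraries at ZT17 had 4.8, 7.2, 3.13, 3.7 and 1.85 and those at ZT21 had 3.61, 6.31, 1.61 and 2.55. Control libraries at ZT1 had 3.34, 5.47, 5.77, 13.1 and 3.82 and those at ZT13 had 7.29, 6.57, 10.6, 9.81 and 6.53, so not every dark-phase value was below the light-phase ones. The acrophase was ZT7.3 (SE 0.717 h), the relative amplitude was 51.3% (SE 9.74) and p = 0.00038 by the permutation test. Diabetic libraries gave no call, with p = 0.807 by the permutation test, 7.57, 9.06, 11.5, 5.68 and 1.79 at ZT5 and 6.44, 9.4, 10.3 and 8.3 at ZT17. The difference between the curves had an unadjusted p = 0.00115 and an edgeR adjusted p = 0.879, so a change of rhythm was not shown. At these counts, 2 to 15 reads per library, the depth limits what can be seen.

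E2f7 was called in diabetic retinas at a similar level. Diabetic means ranged from 3.58 ± 2.31 (n = 5) at ZT9 to 8.69 ± 2.2 (n = 5) at ZT1, 1 ZT9 library had no read, and p = 0.00599 by the permutation test, whereas the edgeR cosine test gave an adjusted p = 0.446. Its adjusted p by the permutation test was 0.0544. In control retinas p = 0.29 by the permutation test. The difference between the curves had an edgeR adjusted p = 1.

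E2f1, E2f4, E2f5 and Rb1 were not called rhythmic in either genotype. Permutation p-values of JTK_CYCLE were 0.432 and 0.633 for E2f1, 0.389 and 0.946 for E2f4, 0.964 and 0.0826 for E2f5 and 0.144 and 0.273 for Rb1, in control and diabetic retinas in that order. Rb1 means were lowest at ZT17 in both, at 1061 ± 254 (n = 5) in control and 1153 ± 230 (n = 4) in diabetic retinas. Single libraries weighed on these means, with 848, 1224, 757, 1360 and 1116 in control and 1334, 850, 1329 and 1097 in diabetic retinas. For the difference in rhythm, edgeR called 0 of the 8 members and 0 of 19120 genes (0%), and DESeq2 called 0 members. Unadjusted p-values under 0.05 were found for E2f2 and E2f3 and for 3.44% of genes.

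**Figure D4:**
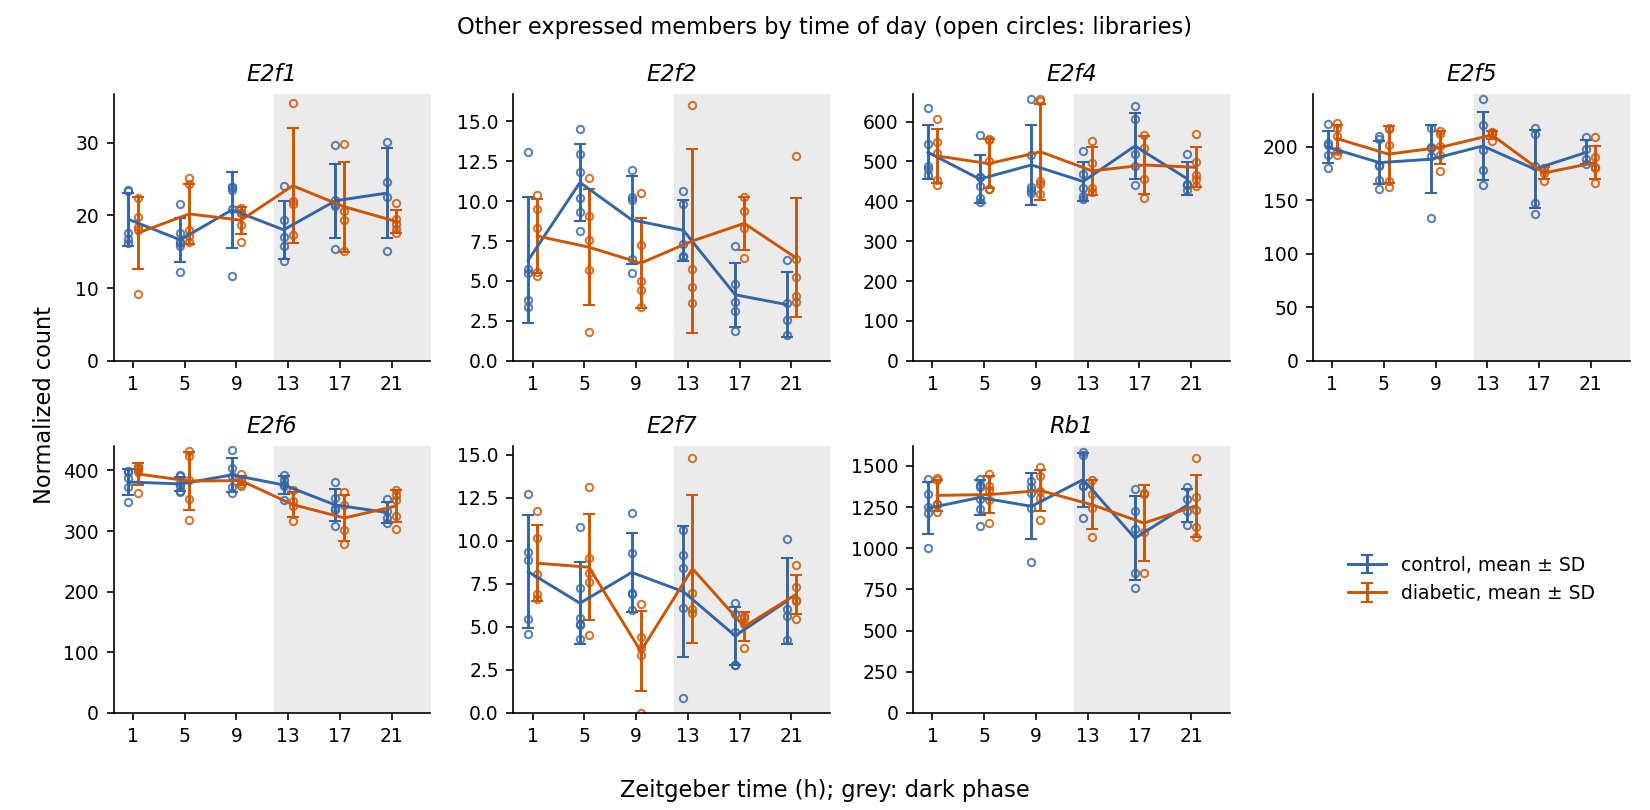
Normalized count of the other 7 expressed genes (vertical axes, from 0) against zeitgeber time in hours, with libraries as open circles and lines through group means ± SD, control in blue and diabetic in orange. E2f6 dips in the dark phase in both genotypes, and the E2f2 mean in control retinas is 11.2 at ZT5 and 3.52 at ZT21.

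Partners, regulators and targets of the family were described with 7 lists of 61 genes, of which 50 were expressed. Averaged over the day edgeR called 3 of these higher in diabetic retinas, against 2.4% of all expressed genes, and 3 lower, against 2.25%. The median log2 fold change of the 50 genes was -0.01, beside 0.00 over all expressed genes.

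Among pocket proteins and DP partners, 1 of 4 rose, Tfdp2, a dimerization partner of E2F, by a log2 fold change of 0.10 (SE 0.031, edgeR adjusted p = 0.04). Among G1 cyclins and kinases 1 of 8 rose, Cdk2, by 0.29 (SE 0.086, edgeR adjusted p = 0.0367), at 29.9 normalized counts in control and 37 in diabetic retinas. Of 6 expressed inhibitors of these kinases 1 rose, Cdkn1a, which encodes p21, by 0.51 (SE 0.12, edgeR adjusted p = 0.00396), from 27.6 to 40.1 normalized counts. The calls of Cdk2 and Tfdp2 were lost in some alternatives.

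Of 7 genes of the MuvB core and its partners, which include the activators Mybl2 and Foxm1, 1 fell, Lin52, by 0.12 on the log2 scale (edgeR adjusted p = 0.0305), and 1 of 8 partners of E2F6, the ubiquitin ligase subunit Ring1, fell by 0.11 (edgeR adjusted p = 0.0452), and both calls were lost in some alternatives. Of 15 expressed E2F target genes 1 fell, Mcm4, a subunit of the replicative helicase, by 0.18 on the log2 scale (SE 0.043, edgeR adjusted p = 0.0096). Of 8 mitotic genes only Birc5 and Plk1 were expressed, and neither was called. At ZT17 no gene of the 7 lists was called.

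Rhythm was called for 14 of the 50 list genes in control retinas, or 28%, and for 23 in diabetic retinas, or 46%, beside 21.8% and 23.9% of all genes. The pocket protein gene Rbl2 peaked near E2f3, at ZT20.5 in control and ZT19.2 in diabetic retinas, with permutation p-values of 9.4e-05 and 0.000422. Tfdp1, a DP partner, peaked at ZT20.1 and ZT20.7. In the same list Rbl1, another pocket protein gene, peaked in the day, at ZT6.01 and ZT4.25, and Tfdp2, called only in diabetic retinas, at ZT7.28. Cdkn2c, an inhibitor of cyclin D kinases, peaked at ZT18.8 and ZT18.3. All E2F target genes that were called peaked in the day, 4 in control and 6 in diabetic retinas, beside 50.8% and 48.2% of all genes called, with Mcm3 at ZT8.8 and ZT7.56.

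Over the 58 libraries, the 5 genes whose log2 CPM was most like that of E2f3 were Rbl2, Kdm5b, Tbl1x, Aff4 and Satb1, with Pearson r of 0.734, 0.718, 0.711, 0.697 and 0.685. For Rbl2, Spearman's rho was 0.665, and r was 0.606 in 30 control and 0.795 in 28 diabetic libraries and 0.695 without the 2 libraries farthest from its median. These are descriptions over libraries that share time of day, genotype and depth. For E2f2 the 5 were Ckap2l, Gm44860, Rpap2, Asrgl1 and Lars, with r between 0.466 and 0.521. In control and diabetic libraries r was 0.482 and 0.583 for Ckap2l and 0.752 and 0.0285 for Gm44860. It was 0.785 and 0.00607 for Rpap2, 0.622 and 0.216 for Asrgl1 and 0.665 and 0.14 for Lars.

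**Figure D5:**
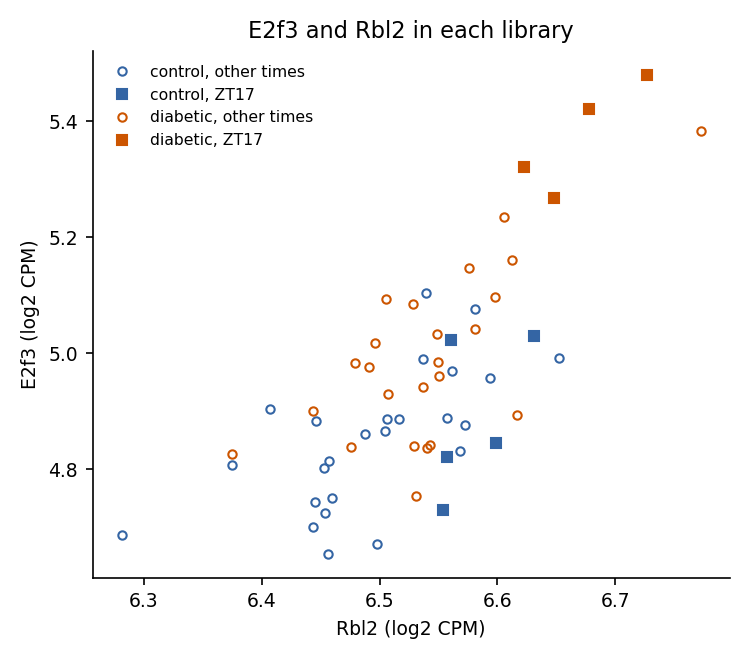
Log2 CPM of E2f3 (vertical) against Rbl2 (horizontal) in each of 58 libraries, control in blue and diabetic in orange, with ZT17 libraries as filled squares. The 4 diabetic ZT17 libraries lie above every control library on the E2f3 axis.

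Summed markers of the other retinal cells overlapped between the genotypes at ZT17. The sum of 3 ganglion cell markers was 1556 to 1758 in control and 1616 to 1921 in diabetic libraries at ZT17, the sum of 3 bipolar markers 14624 to 16608 and 13176 to 15454, and the sum of 4 microglial markers 256 to 329 and 204 to 306, in that order. Retinal pigment epithelium markers summed to 1561 to 2781 and 917 to 2527. Averaged over the day, edgeR called 2 of 4 cone, 1 of 3 bipolar, 1 of 4 microglial and 1 of 4 pigment epithelium markers lower in diabetic retinas, and no marker of the 12 lists higher. Over the 58 libraries, which share time of day and genotype, Spearman's rho of E2f3 with the marker sums ran from -0.275 for cones to 0.462 for ganglion cells. The part of these cells in the E2f3 result was not tested. Without the 3 lens-rich libraries E2f3 was still called at ZT17 and over the day.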

How the data were processed

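RNA from 58 retinas was measured by RNA-seq. The authors aligned reads to GRCm38.p5 with STAR 2.7.4a and Gencode M15 and deposited raw counts per gene symbol made with HTSeq 0.11.1; the strand setting is not given in the sources used here. Samples were grouped by the labels into 12 groups of genotype and time. Genes with a median normalized count above 4 were tested. Genotype was tested with the edgeR 4.0.16 quasi-likelihood test (TMM, 1 fit of 12 groups) and Benjamini-Hochberg correction across every expressed gene, and the difference in rhythm with cosine and sine terms by genotype. Rhythm was tested with a re-written empirical JTK_CYCLE (24 h, 6 phases, 5 widths, 1000000 shuffles) on counts divided by DESeq2 1.42.0 size factors. Acrophase and amplitude come from a least-squares cosine, and log2 CPM used a prior count of 2. Scripts were tested on simulated data. The study calls the replicates biological. Control ZT5 holds 6 libraries, more than the study states for each time point. The labels do not tie retinas to mice, so p-values measure the spread between these samples. The members and gene lists were chosen with earlier results of these data known. All members were named, with up to 3 genes per list by smallest p in the test described and the 5 genes most like E2f2 and E2f3. The rhythm of Tfdp2, outside this rule, was named after its values were seen. Alternatives were other normalization, filters, tools, a replicate block, each library left out and, added after seeing the data, lens-rich libraries left out.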

Additional observations from a re-analysis of the deposited data

Results flagged for a closer look

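Among 96 groups tested, 8 members in 12 groups of 4 to 6 libraries, 8 held a library far from the others by Dixon's 95% critical value, where chance alone flags about 1 in 20 groups. The library stood high for E2f3 in control retinas at ZT1 (489 normalized counts, the others 409 to 426) and in diabetic retinas at ZT9 (465, the others 403 to 414), and for E2f4 in control retinas at ZT5 (566, the others 399 to 461). E2f6 had a low library in diabetic retinas at ZT1 (363, the others 397 to 407). The other 4 concerned low counts, with E2f1 at 11.6 in control retinas at ZT9, E2f2 at 13.1 in control retinas at ZT1 and at 12.8 in diabetic retinas at ZT21, and E2f7 at 14.8 in diabetic retinas at ZT13. No library of E2f3 at ZT17 was among them.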

How the results depend on the processing

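E2f3 over the day was called in every alternative run, with log2 fold changes of 0.18 to 0.20, the highest edgeR adjusted p, 0.00342, coming with 1 group per genotype. At ZT17 it was called in each alternative but the fit on ZT17 libraries alone, which called 0 members, and the cause was not tested. With each of the 58 libraries left out in turn, the members called were 1 over the day, 1 over the 6 time points and 0 for the difference in rhythm, and 3 to 4 in each genotype for rhythm. The fourth was Rb1 without control ZT9 replicate 4 (5080 genes), and E2f5 without diabetic ZT5 replicate 4 or 5 (4949 or 4437). The control rhythm calls numbered 1 by the fold of time-point means (E2f2) and 1 by the edgeR F test over 6 time points (E2f2), and the cause was not tested. With adjusted p under 0.05, E2f6 in control (0.086) and E2f7 in diabetic retinas (0.0544) were not called. E2f6 was also lost in diabetic retinas by the fold of means, E2f3 in control retinas by both edgeR tests, and E2f7 in diabetic retinas by both edgeR tests. A median above 10 left out E2f2 and E2f7. Without the filter E2f8, at 21 reads in all and with exon bases shared with Gm2788, was also called in control retinas (p = 0.0495 by the permutation test). The sign of E2f1 over the day turned without the lens-rich libraries (-0.0041), and lay between -0.0203 and 0.0534 with each library left out. E2f7 turned with 1 group per genotype (0.024) and lay between -0.0811 and 0.0431 with each library left out, and E2f3 at ZT1 between -0.0115 and 0.0887, and none of these was called. Leaving out lens-rich libraries lost the calls of Cdk2 and Lin52, and no filter lost those of Cdk2, Lin52, Ring1 and Tfdp2, and leaving out 1 library lost them in 12, 1, 33 and 24 of 58 fits in that order. With 1 group per genotype Cdk2, Ring1 and Tfdp2 were not called. Counts over all genes moved more: over the day 888 became 533 with no filter and 572 with 1 group per genotype. Over the 6 time points, 39 became 129 by DESeq2 and 10, 62 or 106 without diabetic ZT17 replicate 5, 3 or 1. Rhythmic genes, 4172 in control and 4565 in diabetic retinas, became 1573 and 1967 with adjusted p, 2532 and 2710 by the fold of means, 2337 and 2736 by the edgeR cosine test and 1733 and 1948 by the F test. The difference in rhythm called 3 genes with no filter. Replicate numbers were not taken to pair the samples, because not every same-numbered pair correlated above 0.1: 15 of 26 did (from -0.219 to 0.579, median 0.126), against 20 of 114 differently numbered pairs (median -0.0281). Same-numbered samples thus deviated together in part, and at ZT13 all 4 pairs did, where the block called 0 members and 0 genes as the fit without it. With the replicate block 1 member was called over the day and 1 over the time points, where genes called became 74, and the block lost the call of Cdk2 (adjusted p = 0.0779). Counts of 2 to 15 reads for E2f2 and 0 to 12 for E2f7 limit what these genes can show.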
